A study of Rattus norvegicus with 17 samples.

Results

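The genes described here run the glucose side of liver metabolism. They are the gluconeogenic enzymes phosphoenolpyruvate carboxykinase (Pck1), pyruvate carboxylase (Pc) and fructose-1,6-bisphosphatase (Fbp1), the glucose-6-phosphate transporter of the endoplasmic reticulum (Slc37a4), ketohexokinase (Khk), liver glycogen synthase (Gys2), liver glycogen phosphorylase (Pygl) and the coactivator PGC-1alpha (Ppargc1a). They were chosen by symbol: every probe set annotated to exactly 1 of these 8 symbols was taken. This gave 10 probe sets, of which 9 were bright enough to test, and all 8 genes had at least 1 tested probe set among 9736 genes tested in all. Each of 17 rats gave 1 liver sample, hybridized to an Affymetrix Rat Genome 230 2.0 array. The sham group held 6 rats that had a sham operation and received saline. The ligated saline group held 6 rats whose bile duct was ligated and that received saline. The ligated ghrelin group held 5 rats with the same ligation that received recombinant ghrelin, 10 µg per kg per day, from an osmotic minipump under the skin. Surgery took place at week 7 and the liver was collected at week 9, 2 weeks later. Bile duct ligation closes the duct that drains the liver and is used as a model of cholestasis with scarring, and ghrelin is a peptide hormone of the stomach. The labels gave no strain, sex or genotype, and no sham rat received ghrelin, so every ghrelin effect here is an effect within ligated liver.

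Gluconeogenesis builds glucose from lactate, amino acids and glycerol. Pyruvate carboxylase makes oxaloacetate in the mitochondrion, phosphoenolpyruvate carboxykinase turns oxaloacetate into phosphoenolpyruvate, and fructose-1,6-bisphosphatase removes a phosphate near the end of the path. The last step takes place inside the endoplasmic reticulum, where the transporter encoded by Slc37a4 brings in glucose 6-phosphate for glucose-6-phosphatase. Glycogen feeds the same pool of glucose phosphate through Pygl and is refilled through Gys2, while Khk phosphorylates fructose and so admits dietary fructose to the pathway. Glucagon, acting through cyclic AMP, is known to raise Pck1 and Ppargc1a transcription, and insulin lowers both.

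Promoter sequence was available for 7 of the 8 genes in RefSeq (build GRCr8), and the 250 bases upstream of each annotated start were searched on both strands for 6 short motifs. The core of the cyclic AMP response element, TGACGT, was found upstream of Pck1, Slc37a4 and Ppargc1a, that is in 3 of 7 genes, and in 6.95% of 33469 promoter windows of the same length. These 3 sequences are shown because their genes share the motif but not the outcome after ligation: Slc37a4 fell and Pck1 did not pass the test, while Ppargc1a, near background, has only a description. They lie at chr3:182348322-182348571 (Pck1), chr8:53619775-53620024 (Slc37a4) and chr14:63634058-63634307 (Ppargc1a), all on the plus strand of the build and each ending at the base before the start. Capitals mark TGACGT or its reverse complement ACGTCA.
Pck1: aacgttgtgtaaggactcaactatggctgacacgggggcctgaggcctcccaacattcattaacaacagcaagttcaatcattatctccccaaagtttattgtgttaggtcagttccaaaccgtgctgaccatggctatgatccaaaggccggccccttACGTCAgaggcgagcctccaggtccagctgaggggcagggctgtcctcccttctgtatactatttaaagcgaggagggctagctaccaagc
Slc37a4: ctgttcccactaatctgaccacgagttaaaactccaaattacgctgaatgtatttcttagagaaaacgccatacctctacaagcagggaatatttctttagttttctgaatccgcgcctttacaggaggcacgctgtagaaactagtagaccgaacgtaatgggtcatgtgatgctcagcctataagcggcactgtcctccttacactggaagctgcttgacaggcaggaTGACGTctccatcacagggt
Ppargc1a: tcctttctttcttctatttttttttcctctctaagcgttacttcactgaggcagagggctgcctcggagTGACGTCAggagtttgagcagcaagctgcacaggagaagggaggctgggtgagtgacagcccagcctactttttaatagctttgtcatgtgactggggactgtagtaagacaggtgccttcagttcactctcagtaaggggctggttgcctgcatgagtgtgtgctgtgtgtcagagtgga
In the Pck1 window the motif spanned -91 to -86 on the opposite strand, counted from the annotated start. It spanned -20 to -15 upstream of Slc37a4 and lay at -203 to -198 from a downstream start that RefSeq also lists for that gene. Upstream of Ppargc1a it occurred on both strands, at -181 to -176 and -179 to -174, in overlapping positions. The shorter TGACG, which is part of TGACGT, was present in the same 3 genes and in 18.2% of all windows. CAAAG, a short form of the HNF4 site, was found in 4 of 7 genes (Pck1, Gys2, Khk and Ppargc1a) against 48.2% of windows, and GTTAAT, a short form of the HNF1 site, in Pck1 alone against 6.45%. The forkhead core TGTTTAC (3.21% of windows) and TATAAA (12.9%) were not matched in any of the 7. A match is a run of letters in a window and was not tested as a binding site.

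The arrays of a group were alike, with correlations between log2 values of 0.988 to 0.995. Median intensity was 14.2 to 14.7 on sham arrays, 16.1 to 17.5 on ligated saline arrays and 15.4 to 16.4 on ligated ghrelin arrays. Albumin (Alb), the defining hepatocyte transcript, had a mean log2 intensity of 15.88 in sham and 15.84 in ligated saline liver. Both means lie at the top of the scale, where the highest value of an array was 15.81 to 15.92 in sham. In ligated saline it was 15.80 to 15.88. Whether a fall of Alb would show at this level was not tested. Cell type markers moved with ligation, where 37.5% of all genes were called higher and 27.2% lower. All 8 tested bile duct cell markers rose, their mean lying 3.90 to 5.53 above the sham mean (log2) on ligated saline arrays and 4.30 to 4.95 on ligated ghrelin arrays. Among them Cftr, Sctr, Cldn4 and Cldn7 were below the filter level on all sham arrays and so passed the filter through the ligated groups. The count of 8 and the means that include these 4 genes are therefore given as a description. Stellate cell markers rose in 9 of 10 cases (mean 2.03 to 3.14 above sham on ligated saline arrays, 1.95 to 2.39 with ghrelin), and all 9 macrophage markers rose. Hepatocyte markers fell in 5 of 9 cases, with means of -0.72 to -0.21 (ligated saline) and -0.48 to -0.14 (ligated ghrelin) against sham. In bulk tissue, fewer hepatocytes and less RNA per hepatocyte cannot be told apart. The part of these shifts in the results below was not tested, but values relative to secreted hepatocyte proteins are given where they bear on a gene. The mean of those 8 transcripts moved by only -0.14 to -0.05 on ligated saline arrays, less than the hepatocyte markers. This scaling could therefore shift a change only slightly, and it does not measure the loss of hepatocytes.

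After ligation most of the 8 genes fell. By limma with Benjamini-Hochberg adjustment over all 15965 tested probe sets, 6 of 8 genes were lower in ligated saline than in sham liver. Pck1 did not pass the test. Ppargc1a was called higher, but it passed the filter through the ligated groups, so its call is given as a description. Of all genes tested, 27.2% were called lower and 37.5% higher. The median change of the 8 genes, Ppargc1a included, was -0.66 (log2), beside 0.07 over all genes. The ligated saline and sham arrays did not overlap for 4 of 8 genes (Pc, Slc37a4, Khk and Pygl), close to the 44.5% of all genes without overlap. All levels below are log2 intensities of 1 probe set, changes are differences in log2, and the ± after a change is the limma standard error. A probe set was tested if it exceeded an intensity of 15.5 (3.95 in log2) on at least 5 arrays.

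**Figure D1:**
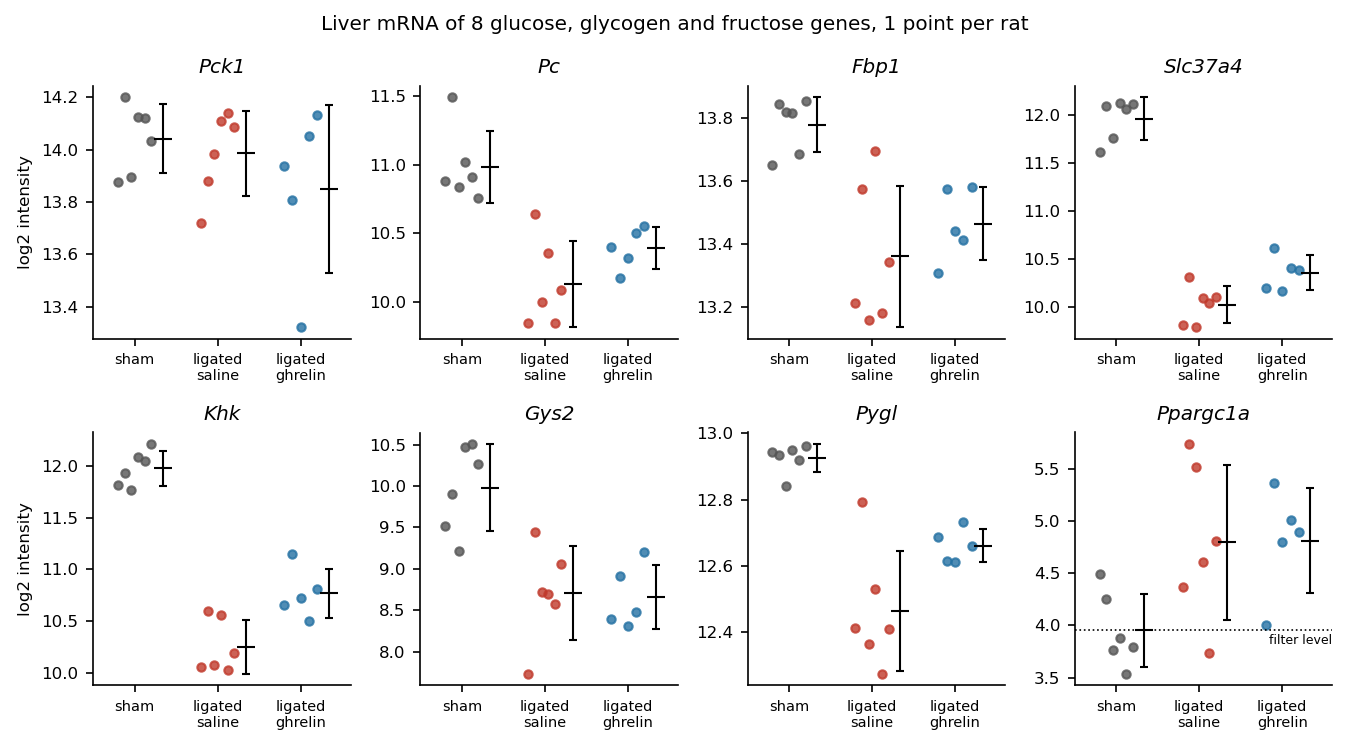
Log2 intensity of each gene's probe set (vertical axis, a separate scale per panel) on every array, by group; bars give the group mean and SD, and the dotted line for Ppargc1a is the filter level of 3.95. All 6 ligated saline arrays lie below all 6 sham arrays for Pc, Slc37a4, Khk and Pygl, while the groups overlap for Pck1.

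The entry of carbon into gluconeogenesis split between its enzymes. Pck1 (probe set 1372264_at), the enzyme usually taken as the transcriptional gate of the pathway, ranged from 13.88 to 14.20 (median 14.08) in sham liver and from 13.72 to 14.14 (median 14.04) in ligated saline liver. With ghrelin the 5 arrays read 13.94, 13.81, 13.32, 14.05 and 14.13. The groups overlapped throughout, and only the array at 13.32 lay outside the range of the other 2 groups. Ligation changed Pck1 by -0.06 ± 0.121 (95% interval -0.31 to 0.20, adjusted p = 0.707), and 3 of 6 ligated saline arrays lay below the sham mean. Ghrelin against saline gave -0.14 ± 0.127 (adjusted p = 0.559), and without the low array, which also had the highest 3' to 5' differences of the actin and GAPDH control probes (2.62 and 0.62 in log2), the change was -0.0052.

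Pc (1386917_at), which supplies the oxaloacetate that Pck1 uses, ranged from 10.76 to 11.49 (median 10.90) in sham liver. Ligated saline liver ranged from 9.84 to 10.64 (median 10.04), and the ghrelin arrays read 10.40, 10.17, 10.32, 10.50 and 10.55. All 11 ligated arrays lay below all 6 sham arrays, and the 2 ligated groups overlapped. Pc fell by 0.86 ± 0.145 after ligation (1.81-fold lower, adjusted p = 7.83e-05) and was lower by 1.51-fold in ligated ghrelin than in sham liver (-0.60 ± 0.152, adjusted p = 0.00341). Relative to 8 secreted hepatocyte proteins the ligation change was -0.75. Ghrelin against saline was 0.26 ± 0.152 (95% interval -0.06 to 0.58, adjusted p = 0.334), with all 5 ghrelin arrays above the ligated saline mean.

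Fbp1 (1368077_at), the bisphosphatase of the shared upper path, showed a small fall. Sham values ran from 13.65 to 13.85 (median 13.82) and ligated saline values from 13.16 to 13.69 (median 13.28), so that 1 ligated saline array reached into the sham range. The ghrelin arrays read 13.31, 13.58, 13.44, 13.41 and 13.58, all below the lowest sham value. Fbp1 fell by 0.42 ± 0.0950 after ligation (1.34-fold lower, adjusted p = 0.00114), and the change was -0.31 relative to the secreted hepatocyte proteins. Ligated ghrelin liver was lower than sham by 0.31 ± 0.0997 (-0.31, adjusted p = 0.0140), and ghrelin against saline was 0.10 ± 0.0997 (adjusted p = 0.576).

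Slc37a4 (1386960_at), the transporter for the last step of glucose output, fell most of the 8 genes. Sham arrays spanned 11.61 to 12.13 (median 12.08), ligated saline arrays 9.79 to 10.31 (median 10.07), and the ghrelin arrays read 10.19, 10.62, 10.17, 10.41 and 10.38. The highest ligated array (10.62) lay well below the lowest sham array (11.61), and the ligated groups overlapped each other. It fell by 1.94 ± 0.117 after ligation (3.84-fold lower, adjusted p = 1.34e-09), and the change was -1.83 relative to the secreted hepatocyte proteins. With ghrelin the change from sham was -1.61 ± 0.122 (3.06-fold lower, adjusted p = 3.1e-08). The difference between ghrelin and saline was 0.33 ± 0.122 (95% interval 0.07 to 0.59), with 5 of 5 ghrelin arrays above the saline mean. It did not pass over all probe sets (adjusted p = 0.137).

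Khk (1387375_at), which traps fructose in the hepatocyte, had the next largest fall. It ranged from 11.77 to 12.21 (median 11.99) in sham liver and from 10.03 to 10.60 (median 10.13) after ligation with saline. Ghrelin-treated rats read 10.66, 11.14, 10.72, 10.50 and 10.82. No ligated array reached the sham range, and 4 of 5 ghrelin arrays lay above the highest saline array. Khk fell by 1.72 ± 0.128 after ligation (3.30-fold lower, adjusted p = 1.25e-08), -1.62 relative to the secreted hepatocyte proteins, and it was 2.31-fold lower in ligated ghrelin than in sham liver (-1.21 ± 0.134, adjusted p = 1.73e-06). Ghrelin against saline was 0.52 ± 0.134 (95% interval 0.23 to 0.80), with 5 of 5 arrays above the saline mean, and missed the threshold over all probe sets (adjusted p = 0.0528). Among the 25 alternative settings with an adjusted p this difference passed in 7, with adjusted p from 0.0298 to 0.143.

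The glycogen enzymes fell together but not equally. Gys2 (1368328_at), which lengthens glycogen chains, ranged from 9.22 to 10.51 (median 10.08) in sham, and from 7.73 to 9.44 (median 8.71) in ligated saline liver. Its ghrelin values were 8.39, 8.91, 8.31, 8.47 and 9.20. The highest saline array lay inside the sham range, whereas all 5 ghrelin arrays lay below the lowest sham array. Gys2 fell by 1.28 ± 0.273 after ligation (2.42-fold lower, adjusted p = 0.000688) and by 1.32 ± 0.287 in ligated ghrelin against sham (2.50-fold lower, adjusted p = 0.00101). Ghrelin against saline was -0.04 ± 0.287, with a 95% interval of -0.65 to 0.56 that leaves changes of either sign possible (adjusted p = 0.944).

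Pygl (1368674_at), which releases glucose 1-phosphate from glycogen, varied little within sham liver, from 12.84 to 12.96 (median 12.94). After ligation with saline it ranged from 12.28 to 12.79 (median 12.41), and the ghrelin arrays read 12.69, 12.61, 12.61, 12.73 and 12.66. Every ligated array was below every sham array, and the ghrelin arrays all lay between the median and the highest saline array. It fell by 0.46 ± 0.0761 after ligation (1.38-fold lower, adjusted p = 6.3e-05), a small change with a small spread. Against sham the ghrelin group was lower by 1.20-fold (-0.26 ± 0.0799, adjusted p = 0.0106), a call that was lost after quantile normalization (adjusted p = 0.0513) and relative to the secreted hepatocyte proteins (adjusted p = 0.0602). Ghrelin against saline was 0.20 ± 0.0799, in 5 of 5 arrays (adjusted p = 0.169).

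Ppargc1a, which coactivates transcription of gluconeogenic and mitochondrial genes, was close to the detection range. Its brighter probe set 1393743_at ranged from 3.54 to 4.50 (median 3.84) in sham and from 3.74 to 5.74 (median 4.71) in ligated saline liver, and read 4.01, 5.37, 4.80, 5.01 and 4.90 with ghrelin. Only 2 of 6 sham arrays exceeded the filter level, against 5 of 6 saline and 5 of 5 ghrelin arrays, so the probe set passed the filter through its level in the ligated groups, and its call is given as a description. The groups overlapped. It rose by 0.85 ± 0.301 after ligation (adjusted p = 0.0221) and by 0.86 ± 0.315 in ligated ghrelin against sham (adjusted p = 0.0296). Ghrelin against saline was 0.02 ± 0.315 (adjusted p = 0.981). A further probe set, 1395518_at, had sham values of 3.04 to 4.59 (median 3.70), saline values of 4.01 to 5.20 (median 4.67) and ghrelin values of 4.36, 5.28, 4.75, 4.43 and 5.09. It gave 0.93 ± 0.263 (adjusted p = 0.00567) for ligation, 1.08 ± 0.276 for ghrelin against sham (adjusted p = 0.00340) and 0.15 ± 0.276 for ghrelin against saline (adjusted p = 0.785), and it too exceeded the filter level on 1 sham array only. The remaining probe set, 1370089_at, lay between 2.36 and 2.66 on every array, below the filter level, and was left out of the fit. Fitted with no filter it gave changes in the opposite direction, -0.13 after ligation (adjusted p = 0.000187) and -0.10 for ghrelin against sham (adjusted p = 0.00271). In that fit 16195 of 31042 probe sets were called lower after ligation, and 14791 for ghrelin against sham. The ligation call of 1393743_at was lost with array medians set equal (0.66, adjusted p = 0.0678), after quantile normalization (0.61, adjusted p = 0.0807), and without ligated saline 2 (0.66, adjusted p = 0.0565) or ligated saline 3 (0.70, adjusted p = 0.0572). The call against sham in the ghrelin group was lost under the same scalings (adjusted p = 0.0581 and 0.0683) and without sham 3, 5 or 6 or ghrelin 2, 4 or 5 (adjusted p = 0.0518 to 0.0784).

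**Figure D2:**
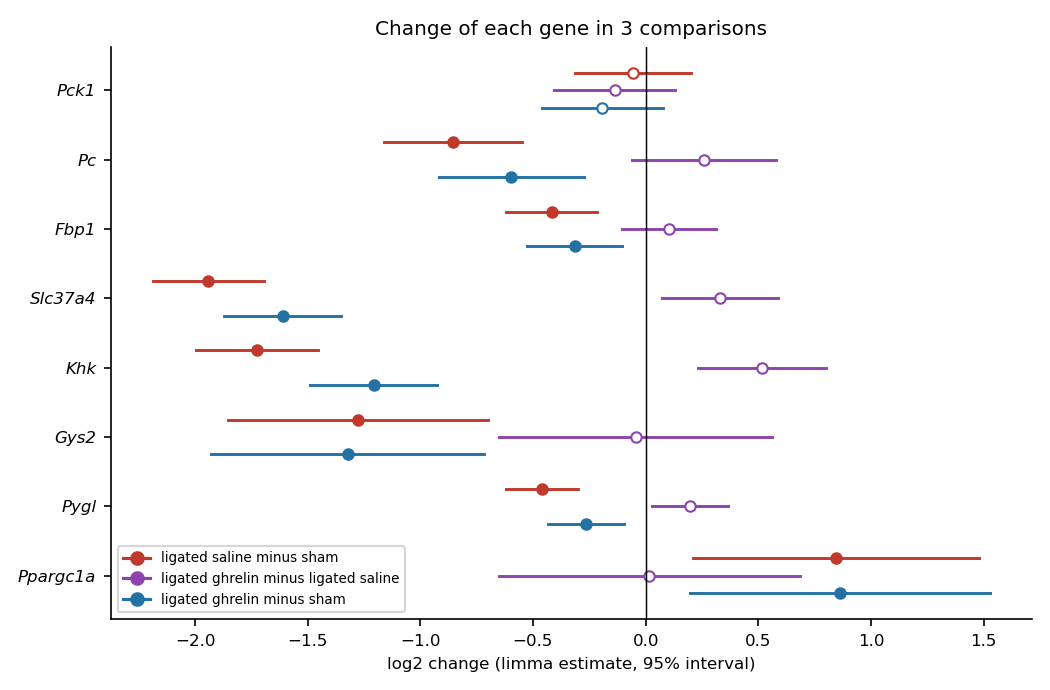
Limma change in log2 intensity (horizontal axis) with its 95% interval for each gene in the 3 comparisons; filled points passed adjusted p = 0.05 and open points did not. In the ghrelin against saline comparison every point is open, and 6 of 8 lie above 0.

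With ghrelin, Khk, Slc37a4, Pc, Pygl and Fbp1 lay nearer to sham on average than with saline, but none passed the test against ligated saline. By limma 0 of 8 were called, where 2.34% of all genes tested were called in either direction, and 0 of 8 had groups without overlap, where 4.53% of all genes did. At an unadjusted p of 0.05, 3 of 8 passed by limma (Khk, Slc37a4 and Pygl), where 22.0% of all genes did, and the same 3 passed by the exact two-sided permutation test over arrays (unadjusted p = 0.0152, 0.0238 and 0.0455). The median change of the 8 genes was 0.15, beside 0.01 over all genes. Of the stellate cell markers, 2 of 10 were lower with ghrelin than with saline (median change -0.62). The median change was -0.54 over 4 lymphocyte, 0.59 over 3 neutrophil, -0.17 over 9 macrophage and -0.10 over 7 endothelial markers. It was -0.07 over the 8 bile duct cell markers and 0.08 over the 9 hepatocyte markers. No gene of these 6 lists was called, and the part of these shifts in the values above was not tested. Against sham, ligated ghrelin liver had 6 of 8 genes lower (21.2% of all genes were called lower), with Pck1 at -0.19 ± 0.127 (adjusted p = 0.214). Ppargc1a was called higher (35.0% of all genes were), which is given as a description since it passed the filter through the ligated groups. The 3 comparisons share arrays, so their values are set side by side and are not independent of each other.

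Array by array, ligated saline 2 stood highest of its group for 6 of 8 genes (Pc, Slc37a4, Khk, Gys2, Pygl and Ppargc1a). Its mean over the 8 genes was -0.33 against sham, where the other 5 saline arrays lay between -1.06 and -0.62. These means include Ppargc1a, near background, which lay 1.79 above its sham mean on ligated saline 2. On the other 5 saline arrays it lay at -0.22 to 1.57. The same array had the lowest bile duct marker mean of its group (3.90) and the highest stellate cell marker mean (3.14); the part of these in its values was not tested. Without ligated saline 2 the ligation changes of the 6 lower genes were larger, for example -1.79 for Khk, -1.42 for Gys2 and -0.53 for Pygl, and all 6 calls remained. Leaving it out also moved ghrelin against saline past the threshold for Khk (0.58, adjusted p = 0.0393) and Pygl (0.26, adjusted p = 0.0451). Khk passed as well without ligated saline 4 (0.58, adjusted p = 0.0298) or ligated ghrelin 4 (0.58, adjusted p = 0.0376).

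Whether genes of the same path changed by different amounts was tested on differences within an array, which do not move when a whole array is shifted by a constant. Quantile normalization can move them and was not applied to them. The gene that fell less was also the brighter in sham liver in these pairs. Sham means were 13.78 for Fbp1 and 11.98 for Khk, 14.04 for Pck1 and 10.98 for Pc, and 12.93 for Pygl and 9.98 for Gys2. The part of brightness in these differences was not tested. Each pair was compared by an exact two-sided permutation test over arrays (smallest possible p 0.00216), adjusted over the 5 pairs of a comparison. The pairs were chosen with earlier results of these data known, and the adjustment does not cover that choice. Khk fell more than Fbp1 after ligation, by 1.31 (difference -1.31, adjusted p = 0.0108). With the sham mean set to 0, Khk minus Fbp1 ran from -0.25 to 0.16 on sham arrays, -1.35 to -1.17 on saline arrays and -1.11 to -0.63 on ghrelin arrays, and no group overlapped another. With ghrelin the difference was 0.41 higher than with saline (exact p = 0.00216, adjusted p = 0.0108, higher in 5 of 5 arrays) and still below sham (-0.89, adjusted p = 0.0108).

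Pck1 and Pc came apart after ligation, Pck1 minus Pc rising by 0.80 (adjusted p = 0.0108). This difference ran from -0.35 to 0.21 on sham arrays, 0.18 to 1.24 on saline arrays and -0.05 to 0.58 on ghrelin arrays. It was 0.40 above sham with ghrelin (adjusted p = 0.0325), a call lost without ghrelin 1, 2, 4 or 5 (adjusted p = 0.0595 in each case). Ghrelin against saline was -0.40 (adjusted p = 0.157), and it passed without ligated saline 2 (-0.52, adjusted p = 0.0198). Fbp1 minus Pck1 fell by 0.36 after ligation (-0.36, adjusted p = 0.0216) and was -0.12 with ghrelin against sham (adjusted p = 0.418). That last value rested on single arrays, with -0.25 without ghrelin 3 (adjusted p = 0.0524), the array with the high 3' to 5' differences, and -0.058 without ghrelin 4.

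The synthase fell further than the phosphorylase. Pygl minus Gys2 was 0.82 higher after ligation (adjusted p = 0.0216) and 1.06 higher with ghrelin (adjusted p = 0.0180), both against sham. Its range was -0.53 to 0.68 on sham arrays, 0.41 to 1.73 on saline arrays and 0.51 to 1.35 on ghrelin arrays, so each ligated group overlapped sham. The mean of Ppargc1a minus Pck1 was 0.90 above sham with saline and 1.05 above with ghrelin, given as a description since Ppargc1a passed the filter through the ligated groups. Between ghrelin and saline, Pygl minus Gys2 (0.24, adjusted p = 0.495) and Fbp1 minus Pck1 (0.24, adjusted p = 0.354) did not pass. With single arrays left out, Pygl minus Gys2 ran from 0.16 (without ligated saline 6) to 0.43 (without ligated saline 1), and Fbp1 minus Pck1 from 0.11 (without ghrelin 3) to 0.30 (without ligated saline 2). Ppargc1a minus Pck1 was 0.15, and ran from -0.090 (without ligated saline 5) to 0.38 (without ghrelin 1). A planned pair of Slc37a4 with the catalytic subunit of glucose-6-phosphatase was not analysed here, because no probe set carried that symbol alone.

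**Figure D3:**
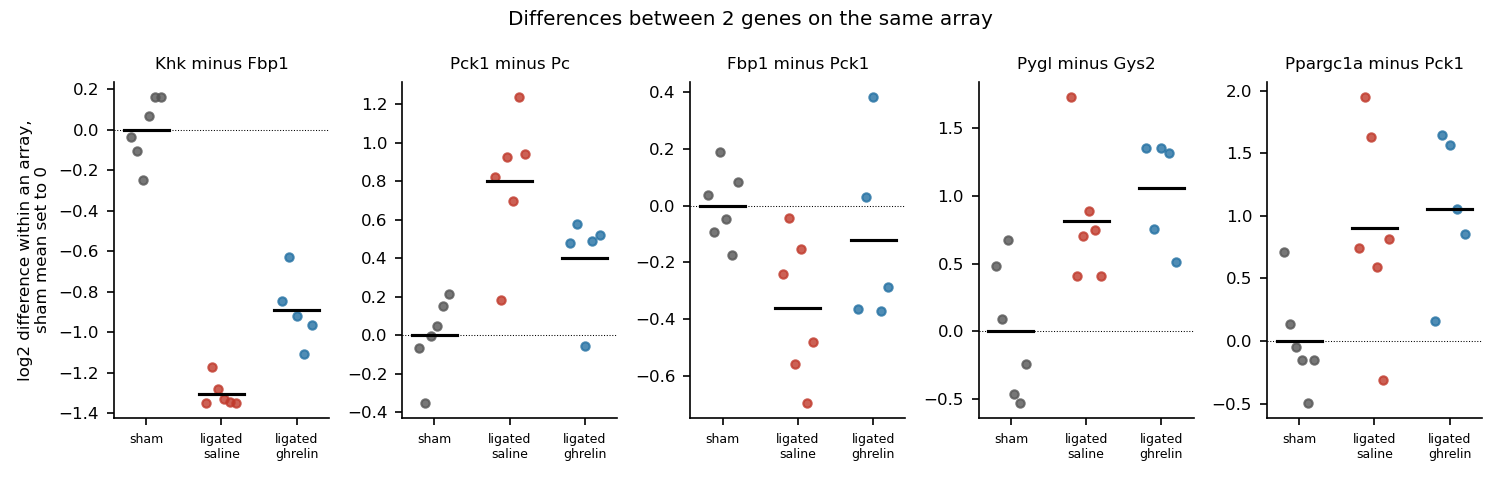
Difference in log2 intensity between the genes named above each panel, on every array, with the sham mean set to 0 (vertical axis); horizontal bars are group means. Khk minus Fbp1 separates all 3 groups, with ghrelin arrays (-1.11 to -0.63) between saline (-1.35 to -1.17) and sham.

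The other genes of the pathways were taken from lists by function. Together with the 8 genes, 85 genes were tested, and 50 fell, 18 rose and 17 did not pass after ligation (median change -0.48, beside 0.07 over all genes). These counts include Ppargc1a and the genes whose calls are given below as descriptions. Over all genes tested, 27.2% were called lower and 37.5% higher. Gluconeogenic enzymes, Pck1, Pc and Fbp1 included, were split: 5 of 14 fell, 5 rose and 4 did not pass, with a median of 0.05. The median and the share that rose were close to those of all genes, and the share that fell was somewhat larger. Aspartate aminotransferase 2 (Got2, -0.63 ± 0.0824) and malate dehydrogenases 1 and 2 (Mdh1, -0.31 ± 0.0690, and Mdh2, -0.29 ± 0.0727), which carry oxaloacetate carbon out of the mitochondrion, fell beside Pc. Those that rose, apart from Pck2, catalyse reversible steps shared with glycolysis: lactate dehydrogenase B (Ldhb, 2.68 ± 0.402), enolase 1 (Eno1, 0.43 ± 0.0838), phosphoglycerate mutase 1 (Pgam1, 0.43 ± 0.0563), mitochondrial phosphoenolpyruvate carboxykinase (Pck2, 0.40 ± 0.160) and triosephosphate isomerase (Tpi1, 0.21 ± 0.0629). The Tpi1 call was lost with array medians set equal (adjusted p = 0.803), and the Pck2 call was lost under that scaling, after quantile normalization, and without sham 1, 2, 3 or 5 or ligated saline 1, 3 or 6 (0.33 to 0.40, adjusted p = 0.0550 to 0.0923).

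Beside Slc37a4, the list of glucose output had 3 other tested genes. Slc37a1, a related sugar-phosphate transporter, rose by 2.75 ± 0.219, at least 4.79-fold, since it was not above the filter level on any sham array. Slc37a1 thus passed the filter through the ligated groups, and its call is given as a description. G6pc3, the widely expressed glucose-6-phosphatase, rose by 0.64 ± 0.132. Slc2a2, the glucose transporter of the hepatocyte surface, was at -0.20 ± 0.105 (adjusted p = 0.104), and passed with array medians set equal (-0.39, adjusted p = 0.00258). Under the scaling as deposited, Slc37a4 was thus the only 1 of these 4 genes called lower, where 27.2% of all genes were.

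Fructose and polyol use changed in all 6 tested genes, 5 lower and 1 higher (median -1.40), where 27.2% of all genes were called lower and 37.5% higher. Slc2a5, the fructose transporter, fell by 3.80 ± 0.184 to below the filter level on all ligated arrays, at least 5.14-fold. Slc2a5 thus passed the filter through the sham arrays, and its call is given as a description. The count of 5 lower genes includes it. Triokinase (Tkfc, -1.43 ± 0.208), sorbitol dehydrogenase (Sord, -1.37 ± 0.147) and glycerate kinase (Glyctk, -0.997 ± 0.117), which act next to Khk in fructose and sorbitol breakdown, fell as well. Aldose reductase (Akr1b1), which makes sorbitol from glucose, rose by 1.91 ± 0.179. With ghrelin against saline, where Khk missed the threshold, Tkfc was at 0.61 ± 0.219 (adjusted p = 0.126, and 0.0441 without ligated saline 2) and Glyctk at 0.36 ± 0.123 (adjusted p = 0.111).

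In the glycogen list 9 of 15 fell, 4 rose and 2 did not pass (median -0.45), beside 27.2% called lower and 37.5% higher over all genes. The largest fall was that of Ppp1r3b, the hepatic subunit that directs protein phosphatase 1 to glycogen (-2.25 ± 0.238), followed by the glycogen-binding protein Stbd1 (-1.52 ± 0.175) and UDP-glucose pyrophosphorylase (Ugp2, -1.42 ± 0.159), which makes the substrate of Gys2. Pygb, the brain form of the phosphorylase, rose by 2.61 ± 0.210 where Pygl fell. Phosphoglucomutase 2 (Pgm2, 1.36 ± 0.169) and glycogenin (Gyg1, 0.46 ± 0.105) also rose, as did acid glucosidase (Gaa, 0.28 ± 0.106). The Gaa call held in 15 of 25 alternatives. It was lost with array medians set equal (0.086, adjusted p = 0.493), after quantile normalization, with only the compared groups in the fit, and without sham 3, 5 or 6 or ligated saline 1, 2, 5 or 6 (adjusted p = 0.0540 to 0.0815).

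Genes that feed precursors into the path fell in 14 of 17 cases with none higher (median -1.01). Over all genes, 27.2% were called lower and 37.5% higher. The precursor genes that fell include alanine aminotransferase (Gpt, -2.89 ± 0.454, and Gpt2, -1.51 ± 0.205) and serine dehydratase (Sds, -2.78 ± 1.07). The Sds call was lost without ligated saline 1 (-1.85, adjusted p = 0.0735) or 6, or without sham 2, 5 or 6 (lowest adjusted p 0.0554). The lactate carrier Slc16a1 (-0.18 ± 0.172), the pyruvate carrier subunit Mpc1 (-0.05 ± 0.111) and pyruvate dehydrogenase kinase 4 (Pdk4, -0.01 ± 0.398) did not pass. Of 9 genes for hormone receptors and insulin signalling, 7 were lower and 2 higher as deposited, beside the same shares over all genes. The alpha-1B adrenergic receptor (Adra1b, -1.85 ± 0.154), Irs1 (-1.67 ± 0.236, at least 2.38-fold lower) and the phosphoinositide kinase subunit Pik3r1 (-1.21 ± 0.483) fell most, while Irs2 (1.15 ± 0.213) and Igfbp1 (2.49 ± 0.327), whose transcription insulin is known to lower, rose. No ligated saline array exceeded the filter level for Irs1, so its call is given as a description. The count of 7 lower genes includes Irs1. The Pik3r1 call held in 18 of 25 alternatives and was lost without sham 1, 3 or 4 or ligated saline 3 or 4 (-1.11 to -0.94, adjusted p = 0.0749 to 0.0947). It was also lost relative to the secreted hepatocyte proteins (adjusted p = 0.0558) and with only the compared groups in the fit (adjusted p = 0.0617). Of the others called lower, Akt2 (-0.28 ± 0.0947) lost its call relative to the secreted hepatocyte proteins (-0.17, adjusted p = 0.125), and Trib3 (-0.68 ± 0.244) lost its call without sham 6 or ligated saline 5 (-0.58 to -0.55, adjusted p = 0.0564 to 0.0587).

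Transcriptional regulators fell in 9 of 20 cases, rose in 4 and did not pass in 7 (median -0.39). Over all genes, 27.2% were called lower and 37.5% higher. Cebpa (-1.61 ± 0.243), Crem (-1.51 ± 0.142) and Klf15 (-1.37 ± 0.210), known regulators of gluconeogenic genes, fell most. Beside Ppargc1a, those that rose were the orphan receptor Nr4a1 (2.49 ± 0.239, at least 2.73-fold), Txnip, an inhibitor of glucose uptake (1.21 ± 0.167), and Creb1 (0.60 ± 0.245). No sham array exceeded the filter level for Nr4a1, so its call, like that of Ppargc1a, is given as a description. The count of 4 includes both. The Creb1 call held in 13 of 25 alternatives and was lost without sham 1, 2, 3, 5 or 6, ligated saline 1, 2, 3 or 5, or ligated ghrelin 2 (0.51 to 0.62, adjusted p = 0.0502 to 0.0958). It was also lost after quantile normalization (0.44, adjusted p = 0.12) and with array medians set equal (0.41, adjusted p = 0.13). Ppargc1b, the closest relative of Ppargc1a, went the other way (-0.77 ± 0.231, adjusted p = 0.00851).

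**Figure D4:**
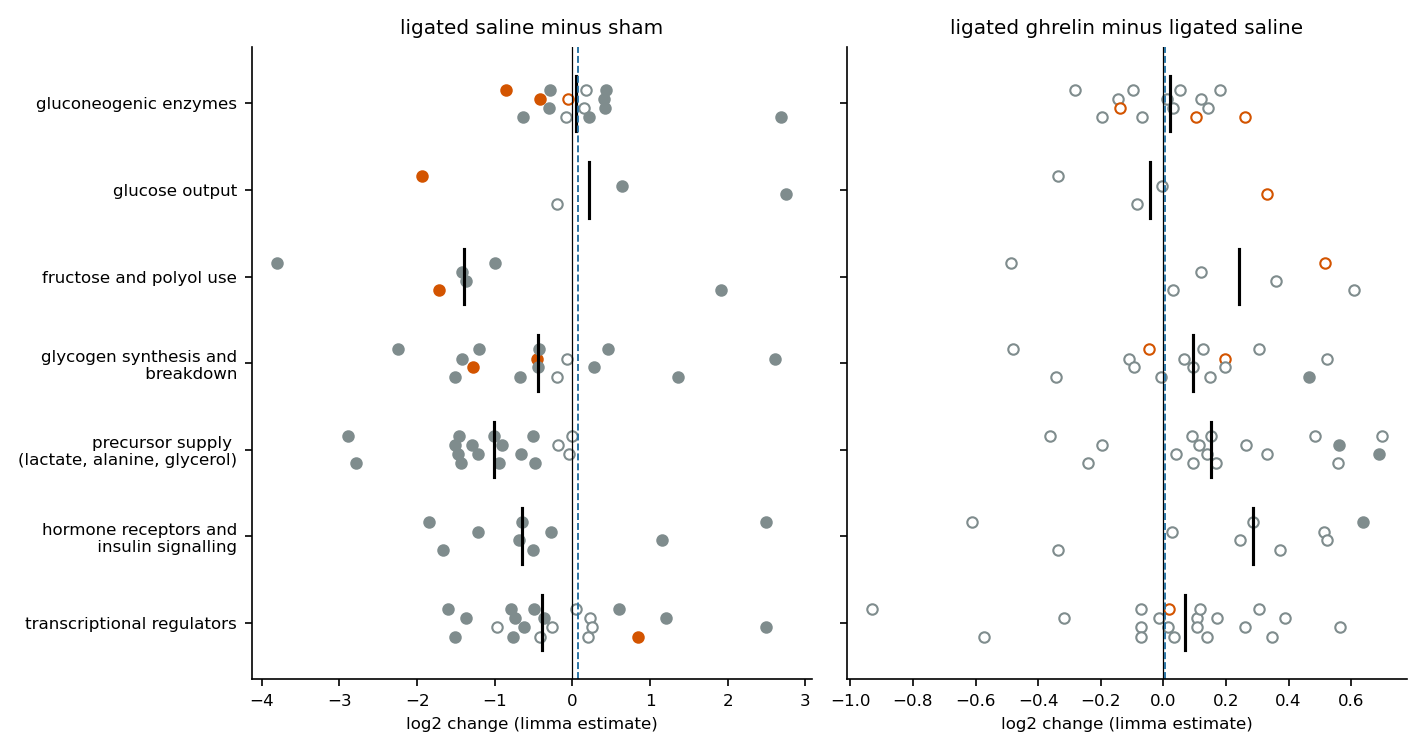
Limma change in log2 intensity (horizontal axis) of each tested gene in the 7 functional lists, for ligation (left) and for ghrelin against saline (right); filled points passed adjusted p = 0.05, orange points are the 8 genes, black bars are list medians and the dashed line is the median over all genes. Fructose and precursor lists have medians of -1.40 and -1.01 after ligation. On the right 4 of 85 points are filled, where 2.34% of all genes were called.

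With ghrelin 4 of these 85 genes were higher than in ligated saline liver and none lower (median 0.11, beside 0.01 over all genes), and none of the 4 is among the 8 genes. Of all genes tested, 2.34% were called in either direction. The 4 genes were phosphoglucomutase 1 (Pgm1, 0.47 ± 0.106, adjusted p = 0.0389), the citrate carrier Slc25a1 (0.56 ± 0.142), pyruvate dehydrogenase kinase 2 (Pdk2, 0.69 ± 0.175) and Adra1b (0.64 ± 0.161), the last 3 at an adjusted p of 0.0494. All 4 had fallen after ligation with saline, a comparison that shares the saline arrays. Their calls held in 14, 7, 7 and 8 of 25 alternatives. All 4 calls were lost with no filter, relative to the secreted hepatocyte proteins, and with only the compared groups in the fit. Pgm1 lost its call without ligated saline 1, 3, 5 or 6 or ligated ghrelin 1, 2, 3 or 5 (0.43 to 0.47, adjusted p = 0.0544 to 0.105), and Slc25a1, Pdk2 and Adra1b lost theirs without any of 14, 14 and 13 of the 17 arrays, left out singly (highest adjusted p 0.138, 0.136 and 0.137). Against sham, 40 of the 85 were lower and 20 higher in the ghrelin group, where 21.2% of all genes were called lower and 35.0% higher. The genes given as descriptions are among the 85.

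For 4 of the 8 genes, the genes with the nearest profile over the 17 arrays were sought among all 9736 by the root mean square difference of log2 values, each set to its sham mean. The nearest to Slc37a4 were Pdk1 (0.215), Cpq (0.230) and Gch1 (0.232), with ligation changes of -2.11, -1.79 and -1.69. Khk lay nearest to Pradc1 (0.193), Chdh (0.193) and Dcxr (0.202). Pck1 lay nearest to Mpc1 (0.127), Zfp74 (0.128) and Mterf1 (0.135), all 3 with ligation changes between -0.13 and -0.05. For Ppargc1a the nearest, Tm7sf3 (0.399), Slx4 (0.445) and Diaph1 (0.453), were farther away.

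The genes named for the zones of the liver lobule were set beside these. Periportal hepatocyte genes, from the zone known for gluconeogenesis, fell in 7 of 10 cases (median -0.95) and perivenous genes in 2 of 7 (median -0.26), with none higher in either list, beside 27.2% of all genes called lower; the perivenous share is near that of all genes, and the difference between the lists was not tested. Across all probe sets the scaling of arrays set the balance of calls: 5468 rose and 4357 fell after ligation as deposited, 4127 and 6456 once array medians were made equal, 4508 and 6221 after quantile normalization, and 6490 and 3432 relative to the secreted hepatocyte proteins, as the median change over all probe sets moved from 0.04 to -0.15, -0.11 and 0.15. Under each of these the 6 genes that fell after ligation were still called lower, and Pck1 was not called.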

How the data were processed

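Each of the 17 arrays holds the liver RNA of 1 rat, in groups taken from the labels. The deposited values are one intensity per probe set on a linear scale, made by the authors with GCRMA per the submitters' processing notes; for GCRMA's version and settings, the sources used here give nothing. Intensities were converted to log2 with no pseudocount. Of 31099 probe sets, 57 controls were left out, and 15965 exceeding the median intensity of 15.5 on at least 5 arrays were kept. Symbols came from the platform annotation (20826 probe sets with 1 symbol, 436 with several, 9780 with none); 20758 were matched by gene identifier to RefSeq GRCr8 and 0 changed. Where several kept probe sets shared a symbol, the brightest on average stood for the gene.

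The 3 groups were fitted together with limma 3.58.1 in R 4.3.3 (14 residual degrees of freedom), with Benjamini-Hochberg adjustment over all kept probe sets and a threshold of 0.05. The fit was tested on simulated data. Differences within an array used exact permutation tests (scipy 1.17.1). The number of arrays limits the precision. The limma p-values set a difference between groups against the spread between these rats, pooled over the 3 groups and moderated over probe sets. A fold written as "at least" sets the brighter group's mean against the filter level, the bound where no array of the other group exceeded it.

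The members, lists, pairs and motifs were chosen with earlier results of these data known. Named beside the 8 genes are up to 3 called genes each way with the largest ligation change per list, up to 2 each way for ghrelin, all genes of a count of 5 or fewer, and the nearest 3 profiles of 4 genes; Mdh1, Mdh2, Got2, Ppargc1b, Alb, Tkfc and Glyctk under ghrelin, and Slc2a2 were named for their place in the pathway, and Akt2 and Trib3 because their calls were lost under an alternative. Alternatives changed the filter, array scaling, variance model, probe set or test, or left out an array.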

Additional observations from a re-analysis of the deposited data

Results flagged for a closer look

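Outlying arrays were sought in 30 sets of values, each the arrays of 1 group for 1 probe set of the 8 genes, and chance flags about 1 in 20. For Pc, sham 2 read 11.49 where the other 5 sham arrays lay between 10.76 and 11.02; its gap to the nearest was 0.649 of the range, above the critical value of 0.625. For Pygl, sham 3 read 12.84 where the others lay between 12.92 and 12.96, a gap of 0.656 of the range. These were 2 of the 30 sets, and both lie among the sham arrays.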

How the results depend on the processing

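The ligation calls of Pc, Fbp1, Slc37a4, Khk, Gys2 and Pygl held under each of the 26 alternatives run, and Pck1 was not called in any. The count of genes called higher after ligation went from 1 to 0 under the stricter filter (where Ppargc1a was not tested), quantile normalization and array medians set equal, and was 0 to 1 when single arrays were left out. For ghrelin against sham the count also went from 1 to 0 under these 3 settings, and was 0 to 1 without single arrays. For ghrelin against saline it went from 0 to 1 (Khk) under the stricter filter, quantile normalization, array medians set equal and a variance trend, and was 0 to 2 without single arrays. Leaving out single arrays, Ppargc1a minus Pck1 after ligation ran from 0.69 to 1.14, and Pck1 minus Pc from -0.52 to -0.28 for ghrelin against saline and from 0.33 to 0.52 for ghrelin against sham. With the Ppargc1a probe set 1370089_at, which is below the filter level on every array, the Ppargc1a change was -0.13 (limma adjusted p = 0.000187) after ligation and -0.10 (adjusted p = 0.00271) for ghrelin against sham. In that fit, with no filter, 16195 of 31042 probe sets were called lower after ligation and 14791 for ghrelin against sham. With this probe set Ppargc1a minus Pck1 was -0.075 after ligation and 0.092 for ghrelin against sham. The cause of the shifts between settings was not tested. Over all kept probe sets, calls for ghrelin against saline numbered 355, from 35 to 653 without single arrays, and 154 with no filter, 118 with only the groups compared, 611 with array medians set equal and 542 after quantile normalization. No paired analysis was possible because the labels number the rats once through all groups. Signal close to background limits Ppargc1a, and the number of arrays limits the rest. The part of probe set brightness in the differences between genes was not tested.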
